A study of Mus musculus with 6 samples.

Results

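The circadian clock and its output genes were followed in the livers of Acsm3 knockout and control mice. The set holds 29 genes, chosen by symbol as core clock components, clock kinases and clock-controlled genes, of 28450 genes in the deposited table. Hepatic poly(A)-selected RNA was sequenced from 3 male Acsm3 knockout mice and 3 male control mice, which the labels give as WT, all aged 12 weeks and on normal diet under a light/dark cycle. Each mouse gave 1 library. Acsm3 is a mitochondrial enzyme that activates medium-chain fatty acids. The strain, the kind of disrupted allele, whether controls were littermates and the hour at which each liver was taken were not stated in the labels.

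The mammalian clock is a feedback loop of transcription. The activators BMAL1, encoded by Arntl, and CLOCK or its relative NPAS2 bind E-boxes and drive the Per and Cry repressors, which return to inhibit them. The nuclear receptors REV-ERB alpha and beta, encoded by Nr1d1 and Nr1d2, repress Arntl, Npas2 and Nfil3 through the same DNA elements on which ROR receptors activate. The proline- and acid-rich bZIP factors DBP, TEF and HLF carry the rhythm to many liver genes through D-boxes, and NFIL3 competes with them there. In mouse liver, Arntl, Clock, Npas2, Nfil3 and Cry1 are known to peak from late night to morning. Nr1d1, Nr1d2, Dbp, Tef, Hlf, Ciart, the Per genes, Cry2, Usp2, Tsku, Wee1 and Noct are known to peak from daytime to dusk. These groups are called morning-phase and evening-phase below, and the other 10 members were given no phase.

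The 4 promoters shown carry the elements of the loop in members whose RNA lay apart between the groups (Arntl, Tef and Per3) or among the knockout mice (Ciart). They are RefSeq windows on GRCm38.p6, from 250 bases before to 50 bases after a start site, read on the gene's own strand. Capitals mark the motif found: a ROR element (AAN followed by TAGGTCA or TGGGTCA) in Arntl at chr7:113207261-113207560 on the plus strand, an E-box (CACGTG) in Tef at chr15:81802423-81802722 on the plus strand, D-boxes (TTATGTAA or TTATGCAA) in Per3 at chr4:151044616-151044915 on the minus strand, and E-boxes in Ciart at chr3:95882179-95882478 on the minus strand.
Arntl: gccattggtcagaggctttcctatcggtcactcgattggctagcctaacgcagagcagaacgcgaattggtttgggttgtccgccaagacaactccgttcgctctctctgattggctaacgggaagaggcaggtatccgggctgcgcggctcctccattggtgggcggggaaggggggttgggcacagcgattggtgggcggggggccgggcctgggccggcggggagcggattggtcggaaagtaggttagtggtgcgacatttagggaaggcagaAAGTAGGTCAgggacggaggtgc
Tef: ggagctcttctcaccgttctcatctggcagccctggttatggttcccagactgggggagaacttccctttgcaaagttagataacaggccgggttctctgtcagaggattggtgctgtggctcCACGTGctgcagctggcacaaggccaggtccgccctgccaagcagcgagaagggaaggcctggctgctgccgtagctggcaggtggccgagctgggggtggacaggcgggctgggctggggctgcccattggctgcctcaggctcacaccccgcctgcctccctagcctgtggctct
Per3: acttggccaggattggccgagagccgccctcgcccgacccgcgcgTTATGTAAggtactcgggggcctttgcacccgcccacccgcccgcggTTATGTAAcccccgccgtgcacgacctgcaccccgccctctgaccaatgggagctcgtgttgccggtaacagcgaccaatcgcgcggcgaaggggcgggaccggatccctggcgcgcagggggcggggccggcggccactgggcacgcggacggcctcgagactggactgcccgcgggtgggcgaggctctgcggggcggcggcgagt
Ciart: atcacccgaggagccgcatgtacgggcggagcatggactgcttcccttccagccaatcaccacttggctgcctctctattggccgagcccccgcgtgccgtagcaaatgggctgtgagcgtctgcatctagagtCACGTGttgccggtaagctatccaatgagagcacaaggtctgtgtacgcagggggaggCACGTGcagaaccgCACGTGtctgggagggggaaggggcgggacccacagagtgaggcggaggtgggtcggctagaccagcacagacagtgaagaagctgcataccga
Windows were listed for 25 of the 29 members, and both strands were searched. Within them an E-box was found in 8 members, namely Per1, Cry1, Tef, Ciart, Bhlhe41, Cipc, Lonrf3 and Coq10b, against 8.09% of 27025 genes with a window. D-boxes were found in 4 members (Per1, Per3, Timeless and Coq10b), against 1.98% of these genes. The ROR element was found in Arntl alone among the members, against 0.514% of these genes. Ciart held 3 E-boxes and Per3 held 2 D-boxes. A match describes these letters only and is not evidence that a factor was bound.

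Values are FPKM, in which fragments are divided by gene length and by the library total, as deposited. Fold changes are differences of log2(FPKM + 1), knockout minus control, with the SE from limma and 3 mice per group, and this scale understates changes of genes with low FPKM. A gene was tested when its mean over the 6 mice was at least 1 FPKM, and it was called at a Benjamini-Hochberg adjusted p under 0.05 over all 10996 genes tested. Of the 29 members, 26 were tested, and Arntl, Npas2 and Bhlhe41 lay under the filter. Limma called 7 of the 26, or 26.9%, against 16.5% of all genes tested. Clock, Tsku, Csnk1d and Csnk1e rose in the knockouts, where 13.9% of all genes tested rose. Tef, Per3 and Noct fell, where 2.61% of all genes tested fell. The median log2 fold change of all genes tested was 0.13, so a member at 0 lay slightly below the typical gene. After median-ratio rescaling, which moves that median to 0.00, 3 members were called higher, against 7.57% of all genes, and 3 lower, against 6.70%, and Csnk1d was the call that was lost. The count depended on the mice. Limma called all 7 without knockout 3 (2250 of all genes), 5 of the 7 without control 1 (641) and 4 of the 7 without knockout 1 (512). Without control 2 or control 3 it called 2, Tef and Per3 (325 and 287 of all genes). Without knockout 2 it called 5 members (304 of all genes), of which 2, Tef and Per3, were among the 7.

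Of 14 evening-phase members, all of them tested, 11 had a negative fold change (78.6%, against 28.8% of all genes tested), and their median was -0.44. Without knockout 2 these were again 11 of 14 and -0.43, and after median-ratio rescaling 12 of 14 and -0.58. Of these 14, 1 rose by the test, where 13.9% of all genes tested rose, and 3 fell, where 2.61% fell. Of 5 morning-phase members, 3 were tested and 1 of them rose (Clock), where 13.9% of all genes tested rose. The 3 had a median of 0.11, which was -0.035 after median-ratio rescaling. Arntl and Npas2, the other morning-phase members, were higher in every knockout mouse at levels too low for the filter. Tested members with no phase had a median of 0.09, with 2 of 9 called, against 16.5% of all genes tested. The hour of collection was not stated, and its part in these values was not tested.

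**Figure D1:**
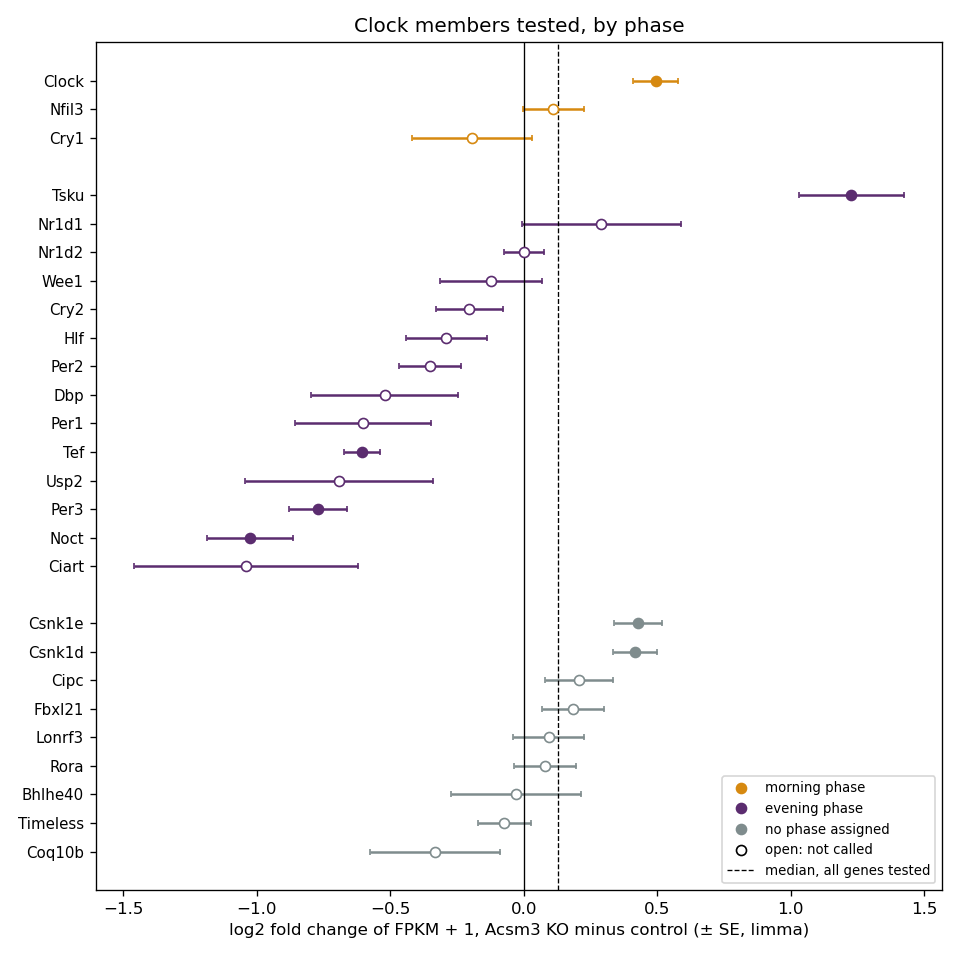
Log2 fold change of FPKM + 1 (Acsm3 knockout minus control, ± SE from limma, 3 mice per group) of the 26 tested clock members, ordered by size within the morning-phase, evening-phase and unassigned members; filled points were called. Most evening-phase members lie left of 0, with Tsku at 1.23 as the exception that was called, and the dashed line marks the median of all genes tested, 0.13.

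Among the morning-phase members, Arntl, which encodes BMAL1, had 1.47, 0.591 and 0.600 FPKM in knockouts 1, 2 and 3, against 0.350, 0.386 and 0.296 FPKM in controls 1, 2 and 3. The groups did not overlap, and knockout 1 was the highest mouse by a wide margin. The steps between FPKM values put these levels at 172, 68 and 73 fragments in the knockout livers and at 43, 46 and 35 fragments in the control livers. The group means were 0.886 ± 0.504 and 0.344 ± 0.045 FPKM (SD, n = 3 each), a ratio of 2.58. Arntl (ENSMUSG00000055116) spans chr7:113207465-113314126 in GRCm38, plus strand. It was not tested under the filter. With no filter its log2 fold change was 0.46, with an adjusted p of 0.230 (limma).

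Npas2, the relative of CLOCK, had 0.429, 0.0682 and 0.0516 FPKM in knockouts 1, 2 and 3, against 0, 0.0132 and 0 FPKM in controls 1, 2 and 3. These values stand for 32, 5 and 4 fragments in the knockouts and for 0, 1 and 0 fragments in the controls. As for Arntl, knockout 1 was the highest mouse. With no filter Npas2 had an adjusted p of 0.351 (limma). Of 26129 genes with a value above 0 in any mouse, 22.4% were higher in all 3 knockouts than in all 3 controls, as Arntl and Npas2 were, and 4.33% were lower in all 3.

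Clock, the partner of BMAL1, was called. It had 6.40, 5.89 and 5.63 FPKM in knockouts 1, 2 and 3, against 3.64, 3.95 and 4.26 FPKM in controls 1, 2 and 3. Every knockout lay above every control, and the mice of each group lay close together. This was a log2 fold change of 0.49 ± 0.08 (adjusted p = 0.0173 by limma), and the ratio of mean FPKM was 1.51. The gene (ENSMUSG00000029238) spans chr5:76209868-76304792 in GRCm38, minus strand. It holds the pseudogene Ube2n-ps1 on the same strand over 459 bp, which was listed at a mean of 7.36 FPKM, so the division of fragments between them is uncertain. The call was lost with quantile normalization (adjusted p = 0.0560) and without knockout 1, knockout 2, control 1, control 2 or control 3 (adjusted p from 0.0508 to 0.0644).

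Nfil3, which represses D-box genes, did not pass. It had 8.46, 8.61 and 8.48 FPKM in the 3 knockouts, against 8.88, 6.42 and 8.32 FPKM in the 3 controls, with an adjusted p of 0.525 (limma). The knockout mice were nearly level and lay within the range of the controls. Cry1, the repressor whose RNA comes latest in the cycle, had 2.21, 2.15 and 2.74 FPKM in the knockouts, against 4.12, 1.72 and 3.07 FPKM in the controls (adjusted p = 0.574 by limma). Here the controls spread 2.40-fold and the knockouts fell inside their range.

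**Figure D2:**
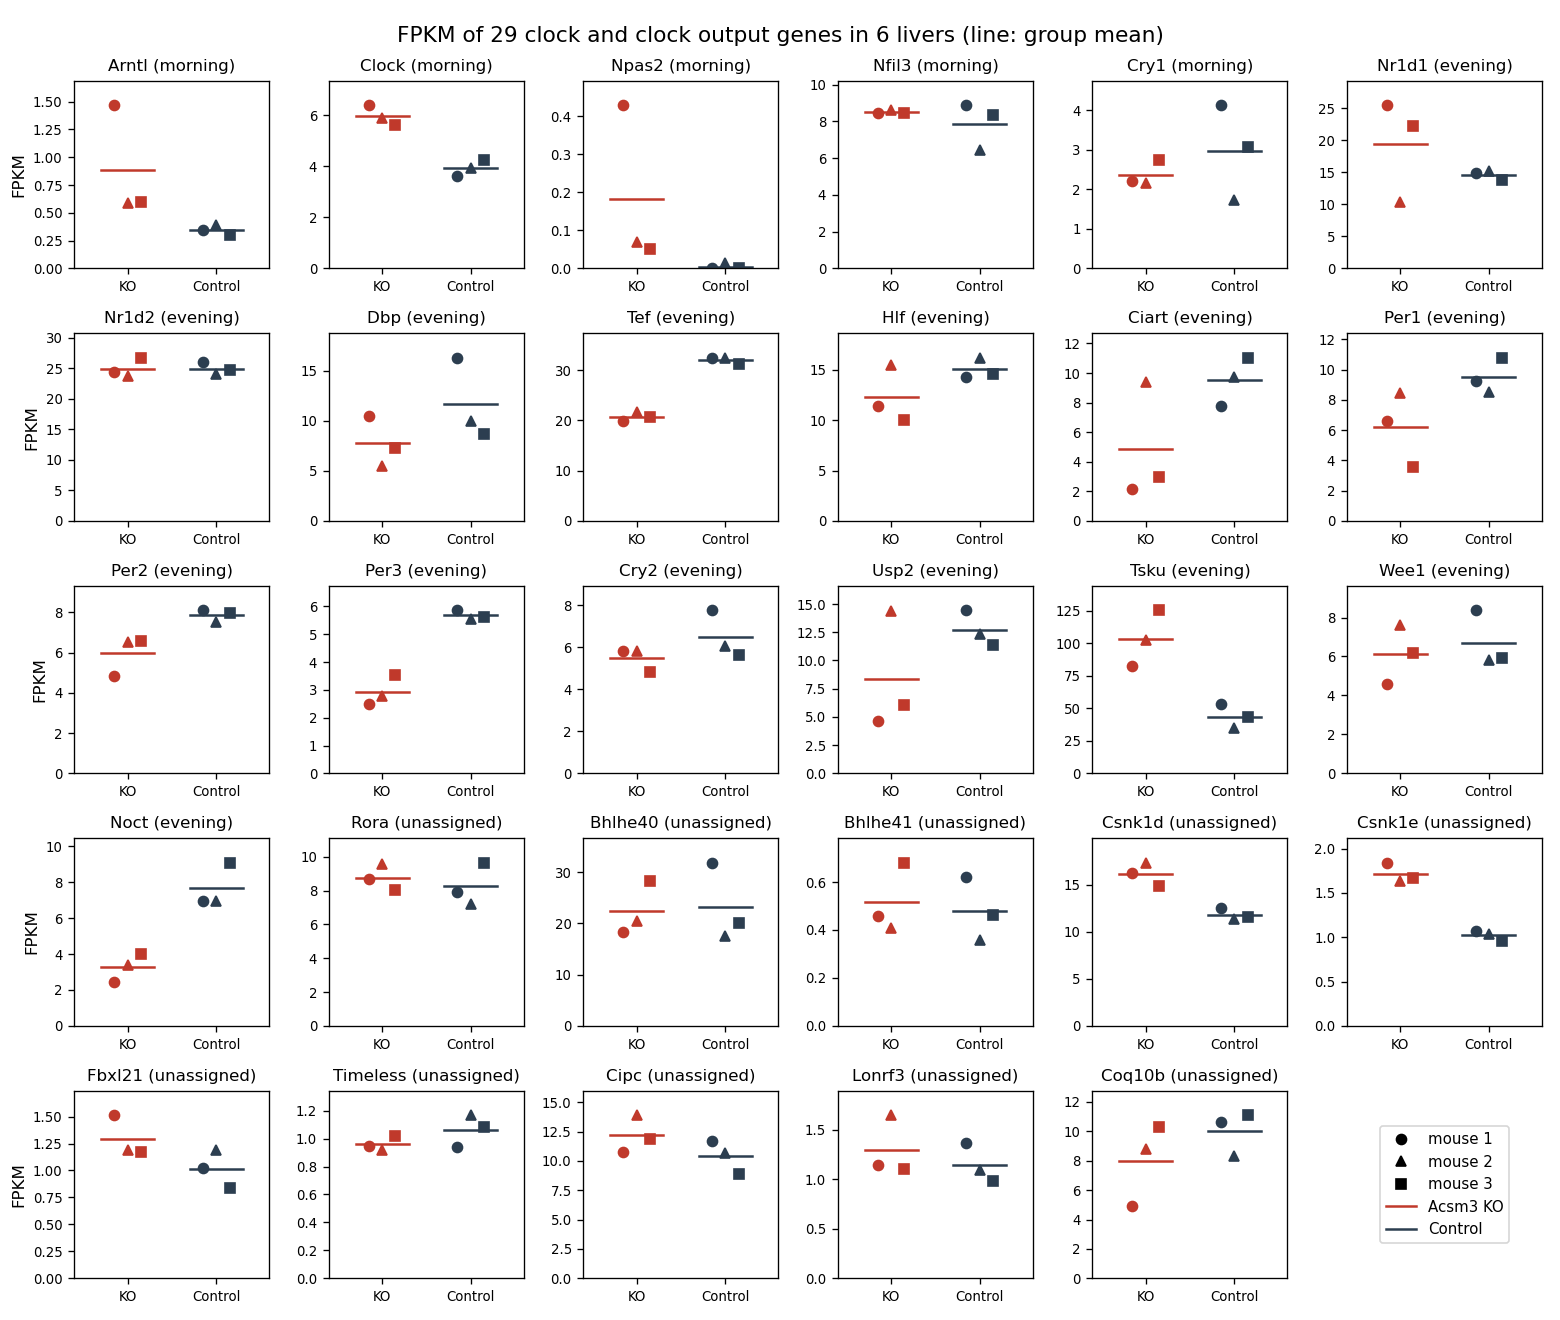
FPKM of all 29 members in each liver, 1 panel per gene with its own axis from 0; knockouts are red and left, controls dark and right, marker shape gives the mouse number and the line the group mean. Tef, Per3 and Noct lie lower and Clock, Tsku, Csnk1d and Csnk1e higher in every knockout, while Nr1d1, Ciart and Usp2 put knockout 2 apart from knockouts 1 and 3.

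The Per genes encode the repressors that, with the cryptochromes, close the loop. Per3 fell. It had 2.49, 2.80 and 3.53 FPKM in knockouts 1, 2 and 3, against 5.86, 5.55 and 5.62 FPKM in controls 1, 2 and 3. The controls were nearly equal and the highest knockout lay well under them. This was a log2 fold change of -0.77 ± 0.11 (adjusted p = 0.0122 by limma), with a knockout mean 0.517 times that of controls. Per3 (ENSMUSG00000028957) spans chr4:151003652-151044665 in GRCm38, minus strand, inside the span of Camta1 on the same strand, which had a mean of 0.227 FPKM. The call held with each mouse left out in turn (adjusted p from 0.00407 to 0.0492).

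Per2 and Per1 were lower in every knockout without being called. Per2 had 4.83, 6.54 and 6.59 FPKM in the knockouts, against 8.11, 7.51 and 7.96 FPKM in the controls (log2 fold change -0.35 ± 0.12, limma adjusted p = 0.0807). Per1 had 6.60, 8.43 and 3.57 FPKM in the knockouts, against 9.24, 8.49 and 10.8 FPKM in the controls (log2 fold change -0.60 ± 0.26, limma adjusted p = 0.144). Knockout 2 almost touched the lowest control for Per1, and knockout 3 was lowest. For the second cryptochrome, Cry2, the values were 5.81, 5.81 and 4.84 FPKM in knockouts and 7.77, 6.09 and 5.65 FPKM in controls (log2 fold change -0.20 ± 0.13, limma adjusted p = 0.290). These groups overlapped, and Cry2 was called with quantile normalization (adjusted p = 0.0489).

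Counting the evening-phase members whose groups did not overlap, 5 of 14 were lower in all 3 knockouts (Per1, Per2, Per3, Tef and Noct), against 7.91% of all genes tested. Tsku was the 1 of 14 that was higher in all 3, against 33.9% of all genes tested. Over the 26 tested members, 9 had groups that did not overlap in either direction, against 41.8% of all genes tested.

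Tef, one of the D-box activators, had the smallest adjusted p of the members. It had 19.8, 21.6 and 20.7 FPKM in knockouts 1, 2 and 3, against 32.5, 32.4 and 31.2 FPKM in controls 1, 2 and 3. Both groups were tight and far apart. This was a log2 fold change of -0.61 ± 0.07 (adjusted p = 0.00638 by limma), and the knockout mean was 0.646 times that of controls. Tef (ENSMUSG00000022389) spans chr15:81802421-81826863 in GRCm38, plus strand, and the E-box printed above lies at position -127 from the start site of its window. Its call held with each mouse left out (adjusted p from 0.00873 to 0.0345).

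The paralogs of Tef varied more. Dbp had 10.5, 5.502 and 7.33 FPKM in the knockouts, against 16.3, 10.0 and 8.65 FPKM in the controls. The groups overlapped, since knockout 1 lay above controls 2 and 3 (log2 fold change -0.52 ± 0.28, limma adjusted p = 0.223). Dbp shares 737 bp with Sphk2 on the opposite strand. Strand handling was not stated, so reads of the shared stretch cannot be told apart. Hlf had 11.4, 15.5 and 9.99 FPKM in the knockouts, against 14.3, 16.2 and 14.6 FPKM in the controls (log2 fold change -0.29 ± 0.15, limma adjusted p = 0.219). Knockouts 1 and 3 lay below every control and knockout 2 lay among them.

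Of the evening-phase output genes, Noct fell. Noct encodes nocturnin, a phosphatase of NADP(H) that belongs to the family of RNA deadenylases. It had 2.45, 3.40 and 3.98 FPKM in knockouts 1, 2 and 3, against 6.95, 6.95 and 9.08 FPKM in controls 1, 2 and 3. Every knockout lay below every control, with a gap of several FPKM between the groups. Its log2 fold change was -1.02 ± 0.16 (adjusted p = 0.0146 by limma), with a knockout mean 0.428 times that of controls. Noct (ENSMUSG00000023087) spans chr3:51224447-51251644 in GRCm38, plus strand, and shares 2464 bp of its span with Gm38357 on the same strand, at a mean of 1.11 FPKM. The call was lost without knockout 2, control 2 or control 3 (adjusted p from 0.0501 to 0.0549).

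Tsku went the other way. It encodes tsukushi, a secreted small leucine-rich proteoglycan made by the liver. It had 82.7, 103 and 126 FPKM in knockouts 1, 2 and 3, against 53.1, 34.7 and 43.3 FPKM in controls 1, 2 and 3. All knockouts lay above all controls, and Tsku had the highest FPKM of the members in every liver. Its log2 fold change was 1.23 ± 0.20 (adjusted p = 0.0152 by limma), a ratio of mean FPKM of 2.37. The gene (ENSMUSG00000049580) spans chr7:98350668-98361328 in GRCm38, minus strand. Without knockout 2, control 2 or control 3 it was not called (adjusted p from 0.0519 to 0.0583). Wee1, a cell cycle kinase under E-box control, had 4.58, 7.61 and 6.17 FPKM in knockouts, against 8.37, 5.82 and 5.94 FPKM in controls (adjusted p = 0.685 by limma), with the groups fully mixed.

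In 4 of the 14 evening-phase members (Nr1d1, Ciart, Usp2 and Hlf) knockout 2 was the knockout farthest from the median of the 3, against 6 for knockout 1 and 4 for knockout 3. Ciart, which encodes the repressor CHRONO, had 2.19, 9.36 and 2.95 FPKM in knockouts 1, 2 and 3, against 7.79, 9.72 and 11.03 FPKM in controls 1, 2 and 3. Knockout 2 lay among the controls and the other knockouts far below them. Usp2, a deubiquitinase with a strong daily rhythm in liver, had 4.60, 14.4 and 6.02 FPKM in the knockouts, against 14.5, 12.3 and 11.3 FPKM in the controls, with the same arrangement. With all mice neither was called, Ciart at -1.04 ± 0.42 (limma, adjusted p = 0.129) and Usp2 at -0.69 ± 0.35 (limma, adjusted p = 0.208).

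Nr1d1, which encodes REV-ERB alpha, showed knockout 2 apart in the opposite sense. It had 25.5, 10.3 and 22.2 FPKM in knockouts 1, 2 and 3, against 14.8, 15.2 and 13.8 FPKM in controls 1, 2 and 3. Knockouts 1 and 3 lay above every control and knockout 2 below every control (log2 fold change 0.29 ± 0.30, limma adjusted p = 0.525). Nr1d1 shares 1075 bp with Thra on the opposite strand, which had 5.29, 3.26 and 2.92 FPKM in the knockouts and 3.29, 3.59 and 3.41 FPKM in the controls. Its paralog Nr1d2 was level, at 24.3, 23.8 and 26.7 FPKM in knockouts and 26.0, 24.0 and 24.6 FPKM in controls (log2 fold change 0.00 ± 0.08, limma adjusted p = 0.986).

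The ratio of Nr1d1 to Ciart, 2 members chosen for this after their values were seen, was 11.7, 1.104 and 7.53 in knockouts 1, 2 and 3 and 1.90, 1.57 and 1.25 in controls 1, 2 and 3. Without knockout 2, Nr1d1 was called higher (log2 fold change 0.67, adjusted p = 0.0371), and Ciart (-1.56, adjusted p = 0.0224) and Usp2 (-1.12, adjusted p = 0.0296) were called lower by limma. In that comparison of 2 knockouts with 3 controls 5 members were called, and 2.80% of all genes tested (2.28% higher and 0.516% lower). Tef and Per3 were the 2 members also called with all mice. Knockout 2 is set aside here because of its values in Nr1d1, Ciart and Usp2, so their calls without it are a description of knockouts 1 and 3 and no support for a difference by genotype.

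**Figure D3:**
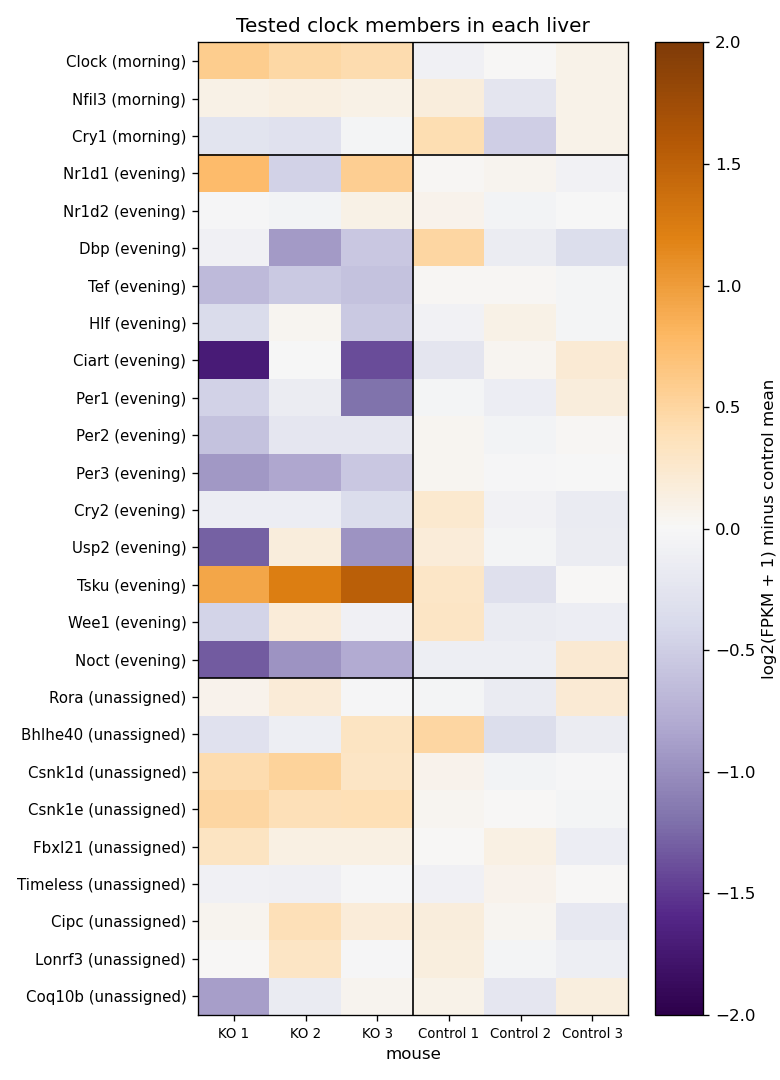
Log2(FPKM + 1) of each tested member in each liver, minus the mean of the 3 controls, with knockouts left of controls and morning-phase, evening-phase and unassigned members separated by lines. Orange is above and purple below the control mean; Ciart, Usp2 and Nr1d1 show knockout 2 unlike knockouts 1 and 3, while Tef, Per3, Noct and Tsku go the same way in all 3 knockouts.

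Spread among the knockouts was measured for every tested gene as the range on the log2(FPKM + 1) scale. It reached 1 or more in 4 of 26 members (Per1, Nr1d1, Ciart and Usp2), or 15.4%, against 3.28% of all genes tested. Among the controls no member reached this range, against 2.55% of all genes tested. Knockout 2 lay farthest from the median of the knockouts in 3 of these 4 members, and knockout 3 in the other, Per1. Over all 361 genes with such a range, knockout 2 was the farthest in 28.0%. Across the transcriptome it was knockout 3 that lay nearest to the controls on the first principal component, at 10.1, where knockouts 1 and 2 lay at 24.6 and 27.7 and the controls at -17.3 or below.

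Of the members with no assigned phase, both clock kinases rose. Csnk1d and Csnk1e encode casein kinases I delta and epsilon, which phosphorylate the PER proteins and set their turnover. Csnk1d had 16.2, 17.3 and 14.9 FPKM in knockouts 1, 2 and 3, against 12.5, 11.4 and 11.6 FPKM in controls 1, 2 and 3, with no overlap (log2 fold change 0.42 ± 0.08, limma adjusted p = 0.0238). Csnk1e had 1.84, 1.64 and 1.67 FPKM in the knockouts, against 1.07, 1.04 and 0.956 FPKM in the controls, again with no overlap (log2 fold change 0.43 ± 0.09, limma adjusted p = 0.0284). Csnk1d spans chr11:120961749-120991330 and Csnk1e chr15:79417856-79455566, both on the minus strand.

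Both kinase calls were near the threshold. Csnk1d was lost after median-ratio rescaling (adjusted p = 0.0520), with no filter (adjusted p = 0.0501) and without knockout 1, knockout 2, control 2 or control 3 (adjusted p from 0.0699 to 0.0856). Csnk1e was lost with quantile normalization (adjusted p = 0.132), with no filter (adjusted p = 0.0713) and without any 1 mouse other than knockout 3 (adjusted p from 0.0688 to 0.0922).

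The other 7 tested members with no assigned phase were not called. Rora, a receptor that activates Arntl, had 8.66, 9.55 and 8.04 FPKM in knockouts and 7.91, 7.20 and 9.65 FPKM in controls (adjusted p = 0.654 by limma). The E-box repressor Bhlhe40 (DEC1) had 18.2, 20.5 and 28.2 FPKM in knockouts and 31.8, 17.6 and 20.03 FPKM in controls (adjusted p = 0.946 by limma), and both groups spread widely over the same range. Cipc, an inhibitor of CLOCK, had 10.8, 13.9 and 11.9 FPKM in knockouts and 11.7, 10.6 and 8.91 FPKM in controls (adjusted p = 0.286 by limma). Coq10b, a mitochondrial coenzyme Q binding protein, had 4.90, 8.81 and 10.3 FPKM in knockouts and 10.6, 8.31 and 11.1 FPKM in controls (adjusted p = 0.369 by limma). Knockout 1 was the low mouse and the other knockouts lay among the controls.

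Fbxl21 (an F-box protein that binds cryptochromes), Timeless (a replication fork protein) and Lonrf3 (a RING finger protein) lay close to the filter. Their means were 1.29 ± 0.192, 0.962 ± 0.0531 and 1.298 ± 0.302 FPKM in knockouts and 1.01 ± 0.175, 1.06 ± 0.115 and 1.148 ± 0.195 FPKM in controls (SD, n = 3 each). Their adjusted p values were 0.296, 0.641 and 0.649 by limma, and the groups of each overlapped. Bhlhe41 (DEC2) had 0.458, 0.408 and 0.681 FPKM in knockouts and 0.619, 0.357 and 0.464 FPKM in controls, all overlapping, and was not tested.

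Further components of the clock were read from a list of 28 genes, of which 27 were in the table and tested. Of these, 3 rose and 1 fell, or 14.8% called, against 16.5% of all genes tested, with a median log2 fold change of 0.13 in both. Gsk3b, a kinase that phosphorylates several clock proteins, rose (0.48 ± 0.09), as did Fbxw11, a beta-TrCP protein that targets PER for degradation (0.39 ± 0.10), and the coactivator Crebbp (0.29 ± 0.08), with adjusted p from 0.0239 to 0.0490 (limma). These 3 rises were lost after median-ratio rescaling (adjusted p from 0.0549 to 0.138), and without knockout 1, knockout 2 or any 1 control (adjusted p from 0.0512 to 0.138), and for Crebbp also without knockout 3 (adjusted p = 0.0527).

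Clock-controlled liver outputs were listed as 17 genes, all tested, of which 2 rose and 1 fell, or 17.6% called, against 16.5% of all genes tested, with a median of -0.03. Insig2, a REV-ERB target that restrains SREBP processing, rose, at 124, 117 and 143 FPKM in knockouts and 54.4, 32.1 and 38.5 FPKM in controls (1.63 ± 0.19, limma adjusted p = 0.00777). Gys2, liver glycogen synthase and a CLOCK target, fell, at 48.1, 60.4 and 64.5 FPKM in knockouts and 106, 106 and 121 FPKM in controls (-0.94 ± 0.12, limma adjusted p = 0.0109). Insig2 and Gys2 were called in each fit without 1 mouse (adjusted p from 0.00796 to 0.0439).

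Glucocorticoids and food reset the liver clock, and lists for both were read beside it. Of 7 glucocorticoid-responsive genes limma called 0, against 16.5% of all genes tested. An unadjusted limma p under 0.05 was found for 0 of the 7, against 3887 of all 10996 genes tested. The genes of this list with the smallest p were Zbtb16 (1.41 ± 0.72) and Tat (-0.21 ± 0.35). Knockout 2 was the highest of the 6 mice for 4 of these 7 genes, Zbtb16 and Fkbp5 among them. The other 3 of the 7 were highest in knockout 1, control 1 or control 3. Knockout 2 was also highest for 5 of the 17 clock-controlled outputs, Lpin1 among them, but for 0 of the 14 evening-phase members. Knockout 1 was highest for 14 of the 27 other clock components, and knockout 3 for 5 of the 8 tested heat shock and temperature genes described below. The share over all genes tested was not counted, and 7825 of these 10996 had a positive fold change. Fkbp5 and Lpin1 were chosen after their values were seen. Zbtb16, a zinc finger factor, was at 1.31, 17.8 and 4.66 FPKM in knockouts 1, 2 and 3 and at 2.70, 0.681 and 1.096 FPKM in controls. Fkbp5, a chaperone of the glucocorticoid receptor, was at 9.41, 33.8 and 12.6 FPKM in knockouts and at 19.0, 11.04 and 15.02 FPKM in controls. The rhythmic phosphatidate phosphatase Lpin1 was at 5.47, 38.3 and 8.33 FPKM in knockouts and at 7.89, 10.6 and 14.5 FPKM in controls. The part of these genes in the arrangement of Nr1d1, Ciart and Usp2 was not tested.

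Of 9 heat shock and temperature genes with a daily rhythm, 8 were tested and limma called 0, against 16.5% of all genes tested. An unadjusted limma p under 0.05 was found for 1 of the 8, against 3887 of all 10996 genes tested. The genes of this list with the smallest p were Hsp90aa1 (0.51 ± 0.16, limma adjusted p = 0.0684) and Hspa1b (0.99 ± 0.52). Of 12 fasting and feeding genes, 11 were tested, 1 rose and 4 fell, or 45.5% called, against 16.5% of all genes tested (13.9% higher and 2.61% lower), with a median of -0.03. Fasn, fatty acid synthase, rose (1.42 ± 0.14, limma adjusted p = 0.00546), and the gluconeogenic genes G6pc (-0.91 ± 0.16) and Pck1 (-0.79 ± 0.20) and the mitochondrial fatty acid importer Cpt1a (-0.29 ± 0.07) fell, with adjusted p from 0.0200 to 0.0435 (limma). Without knockout 2, control 2 or control 3 G6pc was not called (adjusted p from 0.0551 to 0.0665), and Pck1 was lost without any 1 mouse other than knockout 2 (adjusted p from 0.0821 to 0.122). Cpt1a was lost without any 1 mouse (adjusted p from 0.0523 to 0.105).

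**Figure D4:**
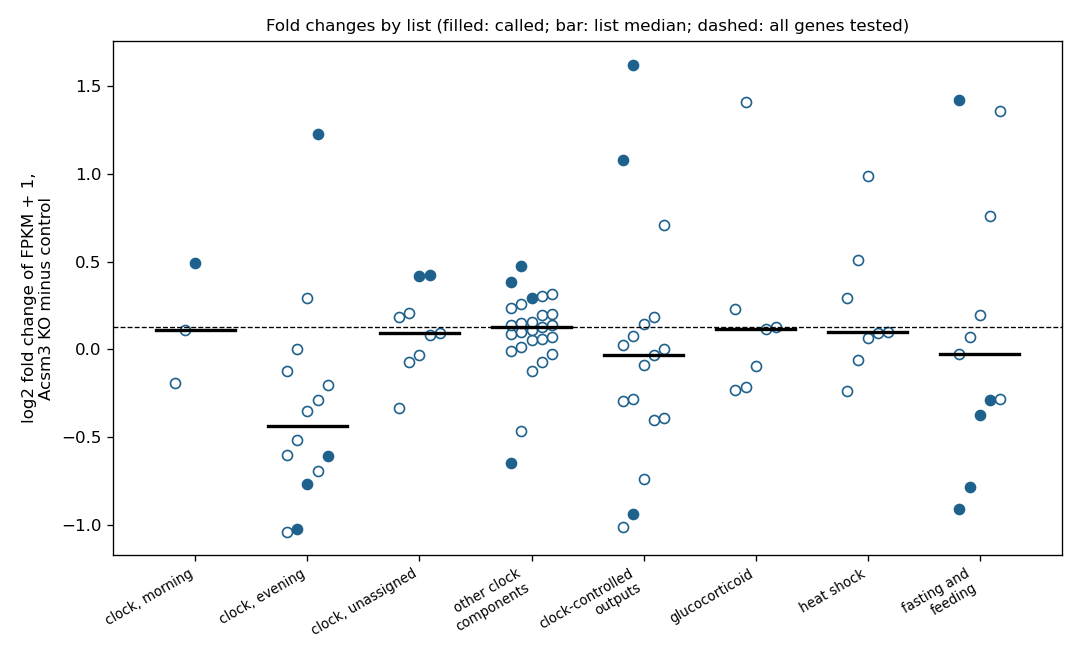
Log2 fold change of FPKM + 1 (Acsm3 knockout minus control) of each tested gene, by list; filled points were called by limma, bars are list medians and the dashed line is the median of all genes tested. The evening-phase clock members have the lowest list median, -0.44, with Tsku as their high point, while the other clock components centre on 0.13.

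Acsm3 itself was at 0.668, 2.92 and 1.08 FPKM in knockouts and 33.2, 34.4 and 32.2 FPKM in controls, lower in every knockout. The steps between FPKM values implied totals of 1.53e+07 to 1.62e+07 fragments in knockout and 1.57e+07 to 1.63e+07 in control libraries. Summed levels of cell type markers did not overlap between the groups, except for B cells. Taken singly, 41.8% of all genes tested had groups that did not overlap, 13.9% were called higher and 2.61% lower. No such share was computed for sums of genes. Summed over 7 hepatocyte markers, of which 2 fell, the level was 30757 to 33916 FPKM in knockouts and 41296 to 49304 FPKM in controls. The sum was 77.9 to 108 FPKM in knockouts and 38.0 to 45.3 FPKM in controls over 7 stellate cell and fibroblast markers (6 rose), 57.2 to 70.0 and 44.6 to 49.4 FPKM over 6 endothelial markers (3 rose), and 34.1 to 66.6 and 13.4 to 16.1 FPKM over 5 cholangiocyte markers (1 of 1 tested rose). Over 8 Kupffer cell and macrophage markers, of which 3 rose and 1 fell, it was 214 to 402 FPKM in knockouts and 148 to 212 FPKM in controls, and over 5 neutrophil markers, with 3 of 4 tested rising and 1 at 0 in every liver, 4.23 to 11.3 and 1.89 to 3.13 FPKM. T and NK cell markers (0 of 7 tested) summed to 2.17 to 3.17 FPKM in knockouts and 1.19 to 1.53 FPKM in controls, and B cell markers (0 of 4 tested) to 1.18 to 3.20 and 0.882 to 1.79 FPKM. In whole liver, fewer cells of a type and less RNA per cell cannot be told apart, and the part of the cell mixture in the clock values was not tested.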

How the data were processed

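The members and the gene lists were chosen with earlier results of these data known. The authors deposited 1 table of FPKM for 6 libraries; per the submitters' processing notes, HISAT2 2.0.4, Bowtie2 2.2.6, StringTie 1.3.0 and GRCm38 were used, with no roles stated. Nothing states how strand or overlapping genes were handled. Groups and replicate numbers came from the titles. The p-values set the difference between groups against the spread between 3 mice per group, which limma moderates with that of all genes tested.

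For genes whose mean reached 1 FPKM, log2(FPKM + 1) was fitted with limma 3.58.1 in R 4.3.3 (trended eBayes) as knockout minus control, and p-values were adjusted by Benjamini-Hochberg over all 10996 genes. The procedure was tested on simulated data. All 29 members are named; of each other list, up to 4 called genes ranked by fold or, with no call, the 2 with the lowest p. A few such genes are left unnamed but remain counted. Cpt1a, Fkbp5, Lpin1 and, as a neighbour of Nr1d1, Thra were named after their values were seen.

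FPKM times union exon length (GENCODE M21, GRCm38) moved in steps, and the total that made these steps whole was taken for each mouse; 99.59% to 99.71% of values under 20 fragments then lay within 0.1 of a whole number. Recovered fragments summed to 102.9% to 103.4% of these totals, so the totals are estimates. Alternatives were pseudocounts of 0.1 and 5, no filter or one at 5 FPKM, median-ratio and quantile scaling, no trend, robust empirical Bayes, a replicate block and leaving out each mouse; voom on recovered fragments was added after seeing the data. With 3 mice a group, an exact permutation p is at least 0.1. Motifs and figures used Python 3.11.15.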

Additional observations from a re-analysis of the deposited data

How the results depend on the processing

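The count of called members was 7 and stayed between 5 and 8 under the alternatives other than a filter at 5 FPKM, which left 19 members and called 4, and leaving out a mouse, which gave 2 to 7. Over all genes 1819 were called, against 650 with no filter, 1108 with the filter at 5 FPKM and 287 to 2250 with a mouse left out. Median-ratio rescaling gave 830 higher and 735 lower genes, where 1532 and 287 were found without it, and called 3 members higher and 3 lower, all 6 of them among the 7; it moved the median of all genes from 0.13 to 0.00. Voom on recovered fragments called the same 7 members.

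Members that were not called changed sign with scaling. After median-ratio rescaling Nr1d2 was at -0.16, Rora at -0.066 and Nfil3 at -0.035; with quantile normalization Nr1d2 was at -0.10, Rora at -0.068, Nfil3 at -0.044, Fbxl21 at -0.020 and Lonrf3 at -0.12. With a mouse left out, the sign also turned for Cry1 (-0.44 to 0.013), Nr1d2 (-0.046 to 0.034), Rora (-0.0016 to 0.19), Nfil3 (-0.012 to 0.19), Bhlhe40 (-0.20 to 0.21), Wee1 (-0.27 to 0.042), Lonrf3 (-0.012 to 0.16) and the glucocorticoid target Tat (-0.51 to 0.089). The cause was not tested.

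The labels do not say that replicate numbers pair the mice. Deviations of same-numbered mice correlated at 0.111, 0.0918 and 0.187, and each mouse correlated best with its own number. Deviations from a group mean cancel within the group, so these correlations depend on each other and do not establish pairing. With a replicate block 8 members and 2018 genes were called, and Dbp was the added member (adjusted p = 0.0444 by limma). At 1.53e+07 to 1.63e+07 fragments a library, Npas2 rested on 1 fragment over all controls, which limits any statement on its size of change.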
